A study of Mus musculus with 8 samples.

Results

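The matricellular genes described here are 10 genes for secreted proteins of the extracellular matrix: the thrombospondins Thbs1, Thbs2, Thbs3 and Thbs4, the related proteins Sparc and Sparcl1, the spondin Spon1, the tenascins Tnc and Tnxb, and periostin (Postn). They were chosen by name, with earlier results of these data known. All 10 were found as rows of a raw count table of 27179 genes and passed the filter on low counts that left 15583 genes. Matricellular proteins bind collagens, fibronectin, growth factors and cell-surface receptors, but are not thought to be the main load-bearing fibres of the matrix. They regulate adhesion, vessel growth and the assembly of collagen, and several are known from wound healing and tumor stroma. In the lung they are made mainly by fibroblasts, vessel cells and smooth muscle, and Thbs1 protein is also stored in platelets.

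The libraries came from lungs of C57BL/6 mice, 18 to 22 weeks old, with Eml4-Alk tumors. The tumors were started by an adenovirus given into the trachea, which delivers Cas9 and guides that join Eml4 to Alk, and the lungs were taken 11 to 12 weeks later. Every mouse received 4.5 nmol of QZ1-(PEG2K), a quenched Cy5 probe that becomes fluorescent and is retained where proteases cut its linker, by vein 2 h before the lungs were collected. Cells negative for DAPI, CD45 and CD11b were sorted by QZ1 signal, with EpCAM on the other axis, into a QZ1-hi population with high signal and a QZ1-lo population with low signal, and at least 100000 cells were collected from each. Bulk RNA-seq was made from 4 QZ1-hi and 4 QZ1-lo libraries; no library of healthy lung enters the comparison, so both groups carry the tumor and the probe. The tumors arise wherever the virus rearranges the locus, and a sorted population mixes tumor cells with the other cells of the lung that pass the gate.

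Total counts per library ran from 18380918 to 26847938. Genes of the mitochondrial genome and of ribosomal RNA took 44.0 to 65.7% of the counts in the QZ1-hi libraries and 34.3 to 53.5% in the QZ1-lo libraries, which left 8711742 to 16311828 counts for all other genes. A level of 3 counts, used as the detection floor, corresponded to 0.0894 to 0.179 CPM by library, the unit of level used throughout (counts scaled to the TMM-adjusted library size); the floor covers counting error only, since reads were not tagged by molecule. The 8 columns were described as biological replicates, but neither labels nor methods say which QZ1-hi and QZ1-lo libraries share a mouse. The p-values set the difference between groups against the spread between these libraries.

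Of the 10 genes, 8 were higher in QZ1-hi, 0 were lower and 2, Thbs1 and Thbs3, were not called (edgeR quasi-likelihood test, Benjamini-Hochberg adjusted p below 0.05 over all 15583 genes). Among all genes tested, 9.88% were called higher and 8.21% were called lower. Since the 10 genes were chosen with earlier results of these data known, these shares are a background and not a test of the list. The median log2 fold change, always given as QZ1-hi relative to QZ1-lo, was 2.54 over the 10 genes and 0.02 over all genes tested. For 6 of the 10 genes the lowest QZ1-hi library had a higher CPM than the highest QZ1-lo library, as was so for 11.9% of all genes tested. In bulk samples, fewer cells of a type and less RNA per cell cannot be told apart.

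**Figure D1:**
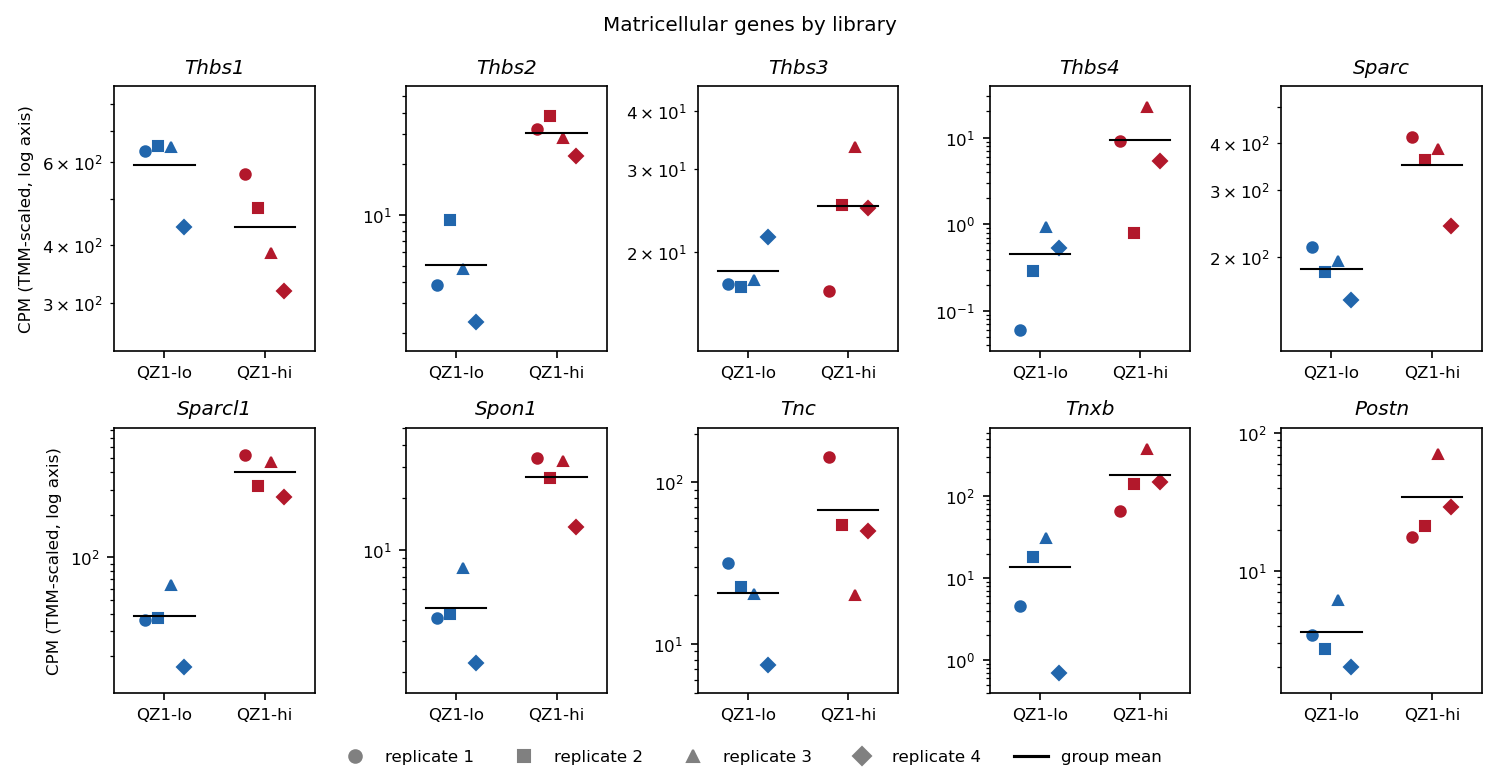
Level of each matricellular gene in CPM (TMM-scaled, log axis, a separate scale in each panel) in the 4 QZ1-lo and 4 QZ1-hi libraries; each point is a library, its shape gives the replicate number and the line is the group mean. Thbs2, Sparc, Sparcl1, Spon1, Tnxb and Postn do not overlap between groups, while Thbs1, Thbs3, Thbs4 and Tnc do.

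The thrombospondins fell into genes with large and small differences. Thbs1, on chr2:118111876-118127133 (mm10, plus strand), encodes the member best known for blocking vessel growth, binding CD36 and CD47, and activating latent TGF-beta. Its level was 567, 479, 384 and 318 CPM in QZ1-hi replicates 1 to 4, and 634, 649, 647 and 436 CPM in QZ1-lo replicates 1 to 4. QZ1-hi replicates 3 and 4 lay below every QZ1-lo library, while QZ1-hi replicates 1 and 2 lay above QZ1-lo replicate 4. The means were 437 ± 109 CPM (SD, n = 4) and 591 ± 104 CPM (SD, n = 4). The log2 fold change of -0.44 ± 0.19 (SE) did not pass the test (edgeR adjusted p = 0.162), and the exact two-sided permutation test over the 70 assignments of libraries gave p = 0.0857, where 0.0286 is the smallest p it allows. Over the fits that left out 1 library it ran from -0.59 without QZ1-hi replicate 1 (edgeR adjusted p = 0.0623) to -0.28 without QZ1-hi replicate 4 (edgeR adjusted p = 0.340).

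Thbs2, on chr17:14665500-14694262 (minus strand), encodes the closest relative of Thbs1, which also restrains vessel growth and takes part in collagen fibril assembly. It stood at 31.9, 38.5, 28.5 and 22.2 CPM in QZ1-hi replicates 1 to 4. In QZ1-lo replicates 1 to 4 it stood at 3.85, 9.32, 4.81 and 2.33 CPM. The groups were fully apart, with a log2 fold change of 2.58 ± 0.36 (SE; edgeR adjusted p = 0.000799). The gene therefore differed by 5.96-fold between the group means of 30.3 ± 6.77 and 5.08 ± 3.0 CPM (SD, n = 4 each).

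Thbs3, on chr3:89215180-89226841 (plus strand), and Thbs4, on chr13:92751586-92794818 (minus strand), encode the shorter kind of thrombospondin, which lacks the domains through which Thbs1 and Thbs2 act on vessels; Thbs4 is found in tendon, heart and vessel wall. Thbs3 measured 16.5, 25.2, 33.5 and 24.8 CPM in QZ1-hi replicates 1 to 4, against 17.1, 16.8, 17.4 and 21.5 CPM in QZ1-lo replicates 1 to 4. QZ1-hi replicate 1 was below all QZ1-lo libraries and the other 3 QZ1-hi libraries were above them. Its log2 fold change of 0.46 ± 0.20 (SE) was not called (edgeR adjusted p = 0.160). Without QZ1-hi replicate 1 it was called, at 0.62 (edgeR adjusted p = 0.0354), and without QZ1-hi replicate 3 it was 0.25 (edgeR adjusted p = 0.477). With library size alone as the scaling its sign turned, at -0.03 (edgeR adjusted p = 0.951). The Mtx1 gene lies on the opposite strand over 6.59% of the exon bases of Thbs3, and whether the counting used strand was not given in the sources used here. Other genes lie on the opposite strand over 3.42% of the exon bases of Thbs1 (Gm29233) and 2.26% of those of Tnc (8030451A03Rik).

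Thbs4 had the fewest counts of the 10 genes and the largest log2 fold change. It measured 9.03, 0.79, 22.5 and 5.42 CPM in QZ1-hi replicates 1 to 4, which are 213, 16, 389 and 91 counts. In QZ1-lo replicates 1 to 4 it measured 0.0596, 0.285, 0.941 and 0.532 CPM, which are 2, 7, 26 and 13 counts, the first under the floor of 3 counts. QZ1-hi replicate 2 lay within the QZ1-lo range, and the other 3 QZ1-hi libraries lay above it. The highest QZ1-hi library was 28.5 times the lowest. The log2 fold change was 4.38 ± 0.94 (SE; edgeR adjusted p = 0.00745), the exact permutation test gave p = 0.0571, and limma-voom did not call the gene (4.28, adjusted p = 0.162).

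**Figure D2:**
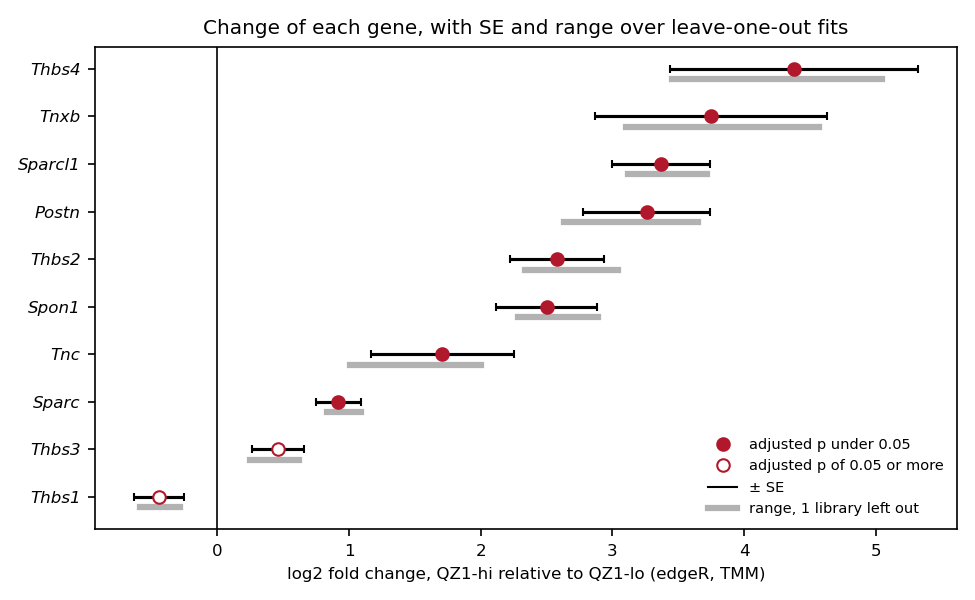
Log2 fold change of each gene, QZ1-hi relative to QZ1-lo (edgeR, TMM scaling); points are estimates, thin bars the SE, grey bars the range over 8 fits that each leave out 1 library, and open points were not called. Thbs1 is at -0.44 and Thbs4 at 4.38; the grey bar of Tnc reaches down to 1.01.

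Sparc and Sparcl1 are a pair of related collagen-binding proteins. Sparc, also called osteonectin, helps collagen to be laid down and is made by many stromal and endothelial cells, and Sparcl1, also called hevin, is prominent in vessel walls and in the brain. Sparc, on chr11:55394159-55420080 (minus strand), measured 416, 361, 386 and 241 CPM in QZ1-hi replicates 1 to 4, and 212, 182, 195 and 153 CPM in QZ1-lo replicates 1 to 4. The groups did not overlap, although QZ1-hi replicate 4 came close to QZ1-lo replicate 1. The log2 fold change was 0.92 ± 0.17 (SE; edgeR adjusted p = 0.00381), the smallest of the 8 genes called. With library size alone as the scaling it was 0.49 and not called (edgeR adjusted p = 0.221).

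Sparcl1, on chr5:104079108-104114088 (minus strand), measured 531, 320, 473 and 267 CPM in QZ1-hi replicates 1 to 4. In QZ1-lo replicates 1 to 4 it measured 36.2, 37.3, 63.8 and 16.9 CPM. The lowest QZ1-hi library was thus well above the highest QZ1-lo library, and the group means of 398 ± 125 and 38.5 ± 19.3 CPM (SD, n = 4 each) differed by 10.3-fold. Its log2 fold change was 3.37 ± 0.37 (SE; edgeR adjusted p = 0.000278), the lowest adjusted p of the 10 genes.

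Spon1 encodes F-spondin, a protein with thrombospondin-type repeats known from axon guidance and from vascular smooth muscle, and lies on chr7:113765998-114043375 (plus strand). It measured 33.6, 25.8, 32.2 and 13.6 CPM in QZ1-hi replicates 1 to 4, and 4.08, 4.31, 7.92 and 2.25 CPM in QZ1-lo replicates 1 to 4. The groups did not overlap. The lowest libraries were QZ1-hi replicate 4 and QZ1-lo replicate 4, whose shared number is not known to mean a shared mouse. Its log2 fold change was 2.50 ± 0.38 (SE; edgeR adjusted p = 0.00113).

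The tenascins and periostin varied widely among the QZ1-hi libraries. Tnc encodes tenascin-C, a protein scarce in most adult tissue that appears in wounds and tumor stroma, and lies on chr4:63959785-64047015 (minus strand). It measured 144, 54.2, 20.1 and 50.2 CPM in QZ1-hi replicates 1 to 4, and 31.8, 22.6, 20.3 and 7.45 CPM in QZ1-lo replicates 1 to 4. QZ1-hi replicate 3 lay below 3 of the 4 QZ1-lo libraries, and the other 3 QZ1-hi libraries lay above all of them. The log2 fold change of 1.71 ± 0.54 (SE) was just past the threshold (edgeR adjusted p = 0.0491), and the exact permutation test gave p = 0.114. The gene was not called by DESeq2 (adjusted p = 0.0514), by limma-voom (adjusted p = 0.0708) or in 6 of 8 fits that left out 1 library, and the change was 1.01 without QZ1-hi replicate 1 (edgeR adjusted p = 0.164). The values without each of the other 5 libraries at which the call was lost were 1.78 and 1.85 (without QZ1-hi replicates 2 and 4), and 1.76, 1.70 and 1.43 (without QZ1-lo replicates 2, 3 and 4).

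Tnxb encodes tenascin-X, a fibroblast product that spaces and stabilises collagen fibrils, and lies on chr17:34660453-34719815 (plus strand). It measured 66.2, 140, 385 and 149 CPM in QZ1-hi replicates 1 to 4. In QZ1-lo replicates 1 to 4 it measured 4.56, 18.2, 31.4 and 0.696 CPM, the last from 17 counts. The groups did not overlap, yet within QZ1-lo the highest library was 45.1 times the lowest. Tnxb was higher by a log2 fold change of 3.75 ± 0.88 (SE; edgeR adjusted p = 0.0122). Of its exon sequence, 6.41% of 50-base stretches also occur in another gene, mostly the partial copy Tnxa, so reads from those stretches can be shared between the genes.

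Postn encodes periostin, which binds collagen and integrins and is made by activated fibroblasts, and lies on chr3:54359267-54391041 (plus strand). It measured 17.8, 21.2, 70.5 and 29.0 CPM in QZ1-hi replicates 1 to 4, against 3.46, 2.73, 6.19 and 2.01 CPM in QZ1-lo replicates 1 to 4. The lowest QZ1-hi library was above the highest QZ1-lo library. QZ1-hi replicate 3 and QZ1-lo replicate 3 were the highest of their own groups. Postn was higher by a log2 fold change of 3.26 ± 0.48 (SE; edgeR adjusted p = 0.000982).

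The genes did not peak in the same libraries. Among the QZ1-hi libraries, replicate 1 was the highest for Thbs1, Sparc, Sparcl1, Spon1 and Tnc, replicate 3 for Thbs3, Thbs4, Tnxb and Postn, and replicate 2 for Thbs2. Replicate 3 was at once the highest QZ1-hi library for Tnxb and the lowest for Tnc, and replicate 1 was the reverse. Among the QZ1-lo libraries, replicate 4 was the lowest for 8 of the 10 genes, all but Thbs3 and Thbs4, and replicate 3 was the highest for 5 of them (Thbs4, Sparcl1, Spon1, Tnxb and Postn).

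Levels of different genes were compared per length, as RPKM (CPM per kilobase of exon sequence). In QZ1-hi, Sparcl1 stood first at 135 ± 42.5 RPKM (SD, n = 4), then Sparc at 92.7 ± 20.3 RPKM and Thbs1 at 72.0 ± 18.0 RPKM. This order held within each of the 4 QZ1-hi libraries, although the ranges of neighbouring genes overlapped between libraries. It depends on the lengths used, the union of all annotated exons (3788 bases for Sparc and 2937 for Sparcl1). Before division by length, Sparc was above Sparcl1 in QZ1-hi replicate 2, at 361 against 320 CPM. Tnxb followed at 15.2 ± 11.3 RPKM, and the remaining 6 genes had means of 2.54 to 8.64 RPKM. In QZ1-lo, Thbs1 stood first at 97.4 ± 17.1 RPKM, then Sparc at 48.9 ± 6.63 RPKM, Sparcl1 at 13.1 ± 6.56 RPKM and Thbs3 at 3.77 RPKM, with no overlap between neighbours. The other 6 genes had means of 0.138 to 2.64 RPKM there, with Thbs4 the lowest.

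Put as shares of the summed RPKM of the 10 genes, Thbs1 made up 57.8 ± 1.81% in QZ1-lo and 21.2 ± 3.61% in QZ1-hi (SD, n = 4 each). The share of Sparcl1 was 7.47 ± 2.81% in QZ1-lo and 39.0 ± 3.75% in QZ1-hi, while that of Sparc was 29.3 ± 2.80% and 27.2 ± 1.92%. The sum itself was 169 ± 30.2 RPKM in QZ1-lo and 343 ± 81.7 RPKM in QZ1-hi. Among the 4 thrombospondins alone, Thbs1 held 95.3 ± 1.20% of the summed RPKM in QZ1-lo and 84.9 ± 5.18% in QZ1-hi.

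Related genes were then set against each other within each library, as the difference of their log2 CPM. The difference Thbs1 minus Thbs2 was 3.84 ± 0.22 in QZ1-hi and 7.0 ± 0.62 in QZ1-lo (SD, n = 4 each), with every QZ1-hi library below every QZ1-lo library. Sparc minus Sparcl1 was -0.15 ± 0.24 in QZ1-hi and 2.40 ± 0.65 in QZ1-lo, also without overlap. For both pairs the exact two-sided permutation test gave p = 0.0286, the smallest it allows, and 0.0571 after adjustment over the 4 pairs compared, which does not pass 0.05. Thbs3 minus Thbs4 was 2.12 ± 1.95 in QZ1-hi and 5.41 ± 1.16 in QZ1-lo, with QZ1-hi replicate 2 at 4.85 inside the QZ1-lo range (exact permutation p = 0.0571, adjusted 0.0762). Tnc minus Tnxb was -1.52 ± 2.20 in QZ1-hi and 1.43 ± 1.89 in QZ1-lo, and its libraries ran from -4.25 to 1.12 and from -0.63 to 3.27 (exact permutation p = 0.114, adjusted 0.114).

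**Figure D3:**
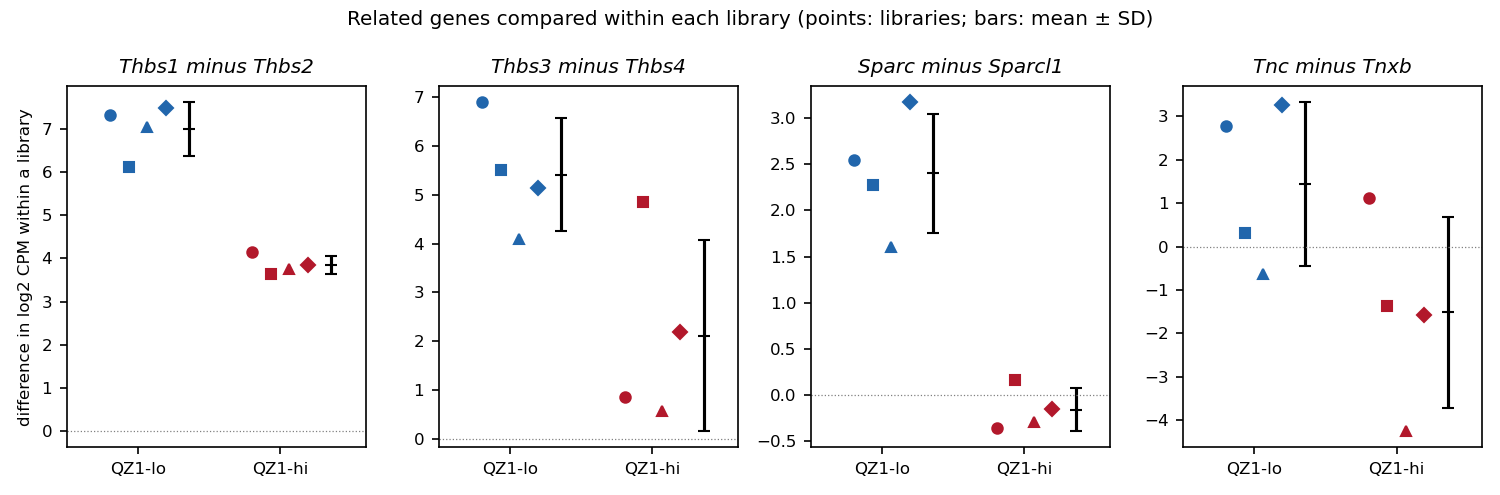
Difference in log2 CPM between related genes within each library (blue, QZ1-lo; red, QZ1-hi; shape, replicate number as in the plot of levels by library), with the mean and SD beside the points. The pairs Thbs1 and Thbs2, and Sparc and Sparcl1, do not overlap between groups; the mean for Sparc minus Sparcl1 is -0.15 in QZ1-hi and 2.40 in QZ1-lo.

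Markers of several cell types moved with these genes. All 7 endothelial markers (Pecam1, Cdh5, Tek, Kdr, Vwf, Cldn5 and Emcn) were higher in QZ1-hi, with a summed level of 839 to 1993 CPM against 61 to 260 CPM in QZ1-lo. Of 6 fibroblast markers 4 were higher (Pdgfra, Dcn, Lum and Pi16), with a summed level of 334 to 903 CPM against 17.4 to 105 CPM. Of 6 pericyte markers 3 were higher (Pdgfrb, Trpc6 and Des), at 65.3 to 99.3 CPM against 9.78 to 30.9 CPM, and all 3 mesothelial markers (Msln, Upk3b and Wt1) were higher, at 29.7 to 208 CPM against 5.44 to 27.5 CPM. Of 4 smooth muscle markers Tagln and Myh11 were higher and Cnn1 was lower, with a summed level of 25.0 to 38.8 CPM against 10.3 to 21.5 CPM (edgeR, as above). Cnn1 was near the floor, with 1 count in total over the QZ1-hi libraries and 56 over the QZ1-lo libraries.

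Some of these lists peaked in the same libraries as some of the genes. Among the QZ1-hi libraries, the endothelial and fibroblast lists and the platelet list given below were highest in replicate 3, the library with the most Tnxb, Postn and Thbs4. By mean log2 CPM the pericyte and smooth muscle lists were highest there too, but their summed levels were highest in replicate 1. The mesothelial list was highest in replicate 2, the QZ1-hi library with the least Thbs4. In QZ1-lo, replicate 4 had the lowest mean log2 CPM of the endothelial, pericyte, fibroblast, mesothelial and smooth muscle lists. It was also the lowest for the epithelial (7.8), alveolar type 1 (6.73) and alveolar type 2 (8.55) lists given below, and for 8 of the 10 genes. Its airway, leukocyte and platelet lists were not the lowest, and its erythroid list was the highest (9.5). No marker was at 0 in all 4 libraries of either group. The part that the cell makeup of the sorted populations plays in the levels of the 10 genes was not tested.

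**Figure D4:**
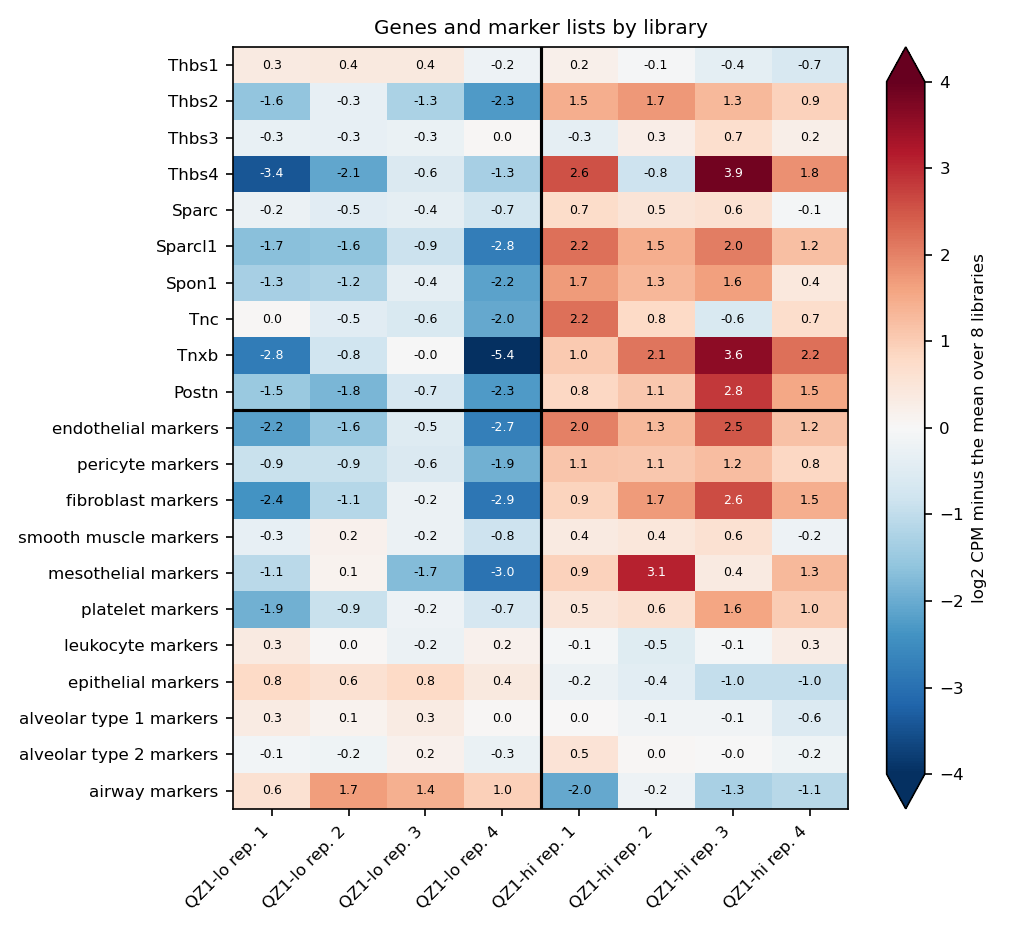
Log2 CPM of each of the 10 genes (above the line) and mean log2 CPM of each marker list (below it) in each library, minus the mean over the 8 libraries; red is above and blue below that mean. QZ1-lo replicate 4 is the lowest library for Tnxb. QZ1-hi replicate 3 is the highest for Tnxb, Postn and the fibroblast, endothelial, pericyte, smooth muscle and platelet lists.

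Platelet markers, from cells that carry Thbs1 protein, also differed. Pf4, Ppbp and Itga2b were higher in QZ1-hi and Gp9 was not called, with a summed level of 17.2 to 35.2 CPM against 3.79 to 8.87 CPM; the part of platelets in the level of Thbs1 was not tested. The 5 leukocyte markers, among them Ptprc, the gene of the CD45 antigen used to remove blood cells, were present but not called in either direction, at 211 to 453 CPM in QZ1-hi and 195 to 350 CPM in QZ1-lo. The 3 erythroid markers were not called either, at 122 to 930 CPM and 263 to 2858 CPM. Of the epithelial lists, all 4 airway markers (Scgb1a1, Scgb3a2, Foxj1 and Ccdc78) were lower in QZ1-hi, at 287 to 856 CPM against 1308 to 3684 CPM. Epcam, whose protein was on the other axis of the sort, and Cdh1 were both lower, with a summed level of 212 to 346 CPM against 548 to 742 CPM. Of 4 alveolar type 1 markers Ager, Hopx and Aqp5 were lower and Pdpn was higher, at 378 to 614 CPM against 747 to 918 CPM. Of 5 alveolar type 2 markers Sftpc was higher, Nkx2-1 was lower and 3 were not called, at 4855 to 8998 CPM against 3512 to 5669 CPM.

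The matrix proteins that these genes' products bind were mostly higher in QZ1-hi as well. Of 9 such genes 7 were called higher, 0 were lower and 2 were not called, against 9.88% called higher among all genes tested, and their median log2 fold change was 3.16. This list and the related lists that follow were also chosen with earlier results of these data known. The 3 largest changes were in the fibrillar collagens, with Col1a2 at 3.54 ± 0.67, Col3a1 at 3.52 ± 0.62 and Col1a1 at 3.26 ± 0.54 (log2 fold change ± SE; edgeR adjusted p = 0.00367, 0.00243 and 0.00185). Col3a1 stood at 640 to 1192 CPM in the QZ1-hi libraries and at 12.2 to 136 CPM in the QZ1-lo libraries. Dcn is counted both here and among the fibroblast markers.

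Of 15 receptor and surface partner genes 7 were higher in QZ1-hi, 2 were lower and 6 were not called, beside 9.88% called higher and 8.21% called lower among all genes tested, and their median log2 fold change was 0.74. The count called lower is near that background and says nothing particular of receptors. Stab1, a scavenger receptor that takes up Sparc, rose to 29.0 ± 9.25 CPM from 3.29 ± 2.07 CPM (SD, n = 4 each), which is 3.14 ± 0.47 on the log2 scale (SE; edgeR adjusted p = 0.00106). Itga5, the integrin subunit of the fibronectin receptor, was higher by 1.61 ± 0.16 (SE; edgeR adjusted p = 0.000256). Itga8, an integrin subunit that binds tenascin-C, was higher by 2.64 ± 0.78 (SE; edgeR adjusted p = 0.0384) and lost its call in 5 of 8 fits that left out 1 library (QZ1-hi replicates 2, 3 and 4, QZ1-lo replicates 1 and 2), where it was 2.50 to 2.72. The integrin subunits Itga3 and Itgav were lower, by -1.04 ± 0.14 and -1.01 ± 0.15 (SE; edgeR adjusted p = 0.000586 and 0.000876). Itgav, a subunit of receptors for periostin and tenascin-C, measured 71.3 to 94.2 CPM in QZ1-hi and 152 to 218 CPM in QZ1-lo, so that its groups did not overlap.

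Of 20 other matricellular genes 17 were tested, of which 7 were higher in QZ1-hi, 1 was lower and 9 were not called, beside the same 9.88% and 8.21% of all genes tested, and their median log2 fold change was 1.36. The single gene called lower is no more than that background. Spon2, a secreted relative of Spon1, was higher by 3.74 ± 0.47 (log2 fold change ± SE; edgeR adjusted p = 0.000510), at 15.7 ± 7.96 against 1.17 ± 0.590 CPM (SD, n = 4 each). Ccn5 was higher by 3.44 ± 0.67 (SE; edgeR adjusted p = 0.00457) at a low level of 2.32 to 6.30 CPM in QZ1-hi. Fstl1, a follistatin-like relative of Sparc, was higher by 3.33 ± 0.36 (SE; edgeR adjusted p = 0.000278) and stood at 173 ± 65.2 against 17.2 ± 7.81 CPM. Ccn1, a target of YAP signaling, was the 1 gene called lower, by -0.58 ± 0.18 (SE; edgeR adjusted p = 0.0457), and it lost its call in 6 of 8 fits that left out 1 library (QZ1-hi replicates 1, 3 and 4, QZ1-lo replicates 1, 2 and 3), where it was -0.64 to -0.41.

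**Figure D5:**
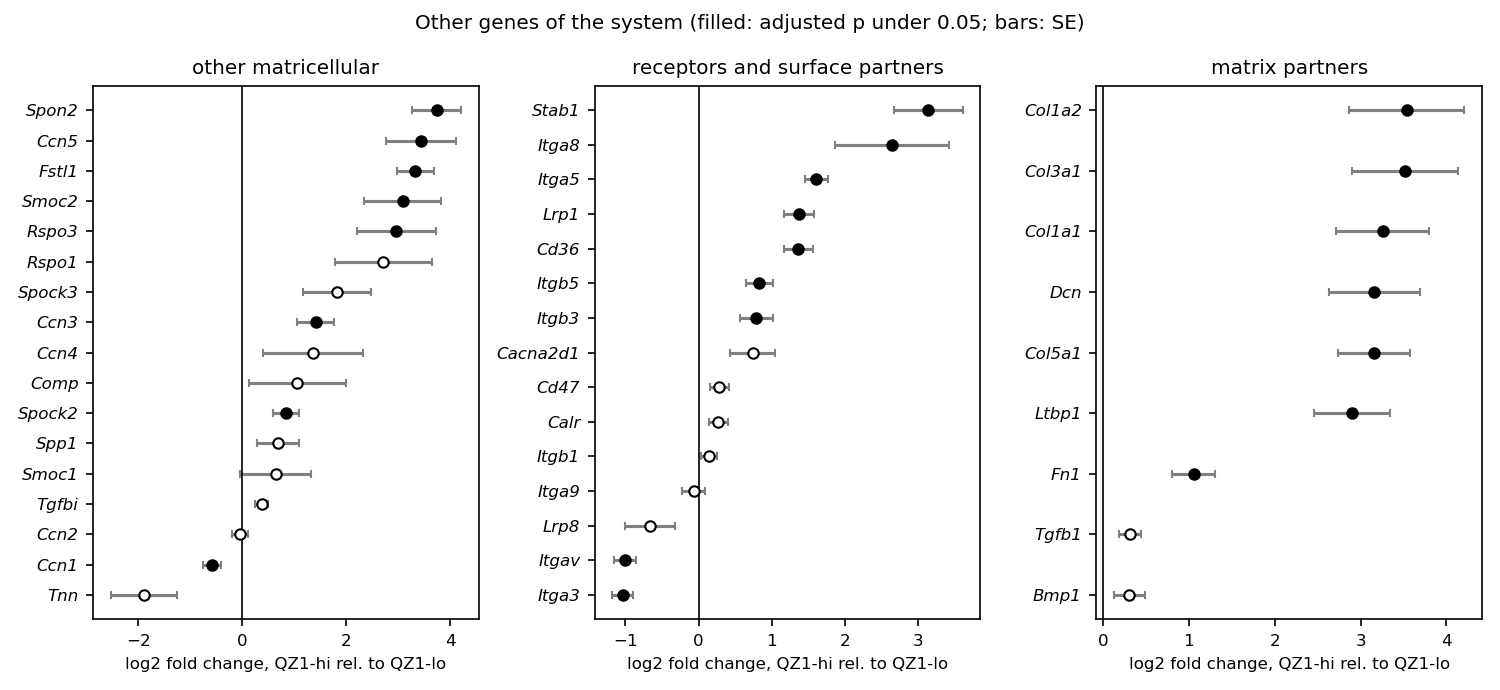
Log2 fold change of the tested genes of the 3 related lists (other matricellular genes, receptors and surface partners, matrix partners), QZ1-hi relative to QZ1-lo; bars are the SE and filled points passed the edgeR test. Col1a2 lies at 3.54 and Spon2 at 3.74, while Itga3 lies at -1.04 and Ccn1 at -0.58.

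The genes whose log2 CPM followed each of the 10 most closely over the 8 libraries were found by Pearson's r, as a description only. The 8 points include the difference between groups, and the highest values were picked from all genes tested, which alone favours a high r. For Thbs1 they were Fdft1 (0.977) and Fam83g (0.975), and for Thbs3 Lgals2 (0.954) and Zscan26 (0.937). Thbs2 was followed by Loxl3 (0.987), and Thbs4 by Wdr18 (0.994) and Dock9 (0.980). Sparc went with Scarf1 (0.980) and Clic4 (0.977), Sparcl1 with Pxdn (0.995) and Cxcl12 (0.994), and Spon1 with Gja4 (0.996) and Filip1 (0.992). The nearest genes to Tnxb were P3h3 (0.999) and Pde5a (0.995), to Postn C1qtnf1 (0.991) and Sema3c (0.985), and to Tnc Tnfsf11 (0.972) and Nsa2 (0.964).

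The 120 bases before the annotated start were read from RefSeq (GRCm38.p6) for the 7 of the 10 genes with an entry. Thbs1, Sparcl1 and Spon1 had none. The aim was to set Thbs2 and Thbs4, which were called, beside Thbs3, which was not, with Tnxb beside them. Thbs1 was not called either, but could not be shown. Both strands were searched for a TATA box (TATAAA), an AP-1 site (TGANTCA), a TEAD site (GGAATG), a GC box (GGGCGG) and a CCAAT box (CCAAT). Capitals mark a match, on either strand, in the sequences of Thbs2 (chr17:14694263-14694382, minus strand), Thbs3 (chr3:89215060-89215179, plus strand), Thbs4 (chr13:92794819-92794938, minus strand) and Tnxb (chr17:34670415-34670534, plus strand).
Thbs2: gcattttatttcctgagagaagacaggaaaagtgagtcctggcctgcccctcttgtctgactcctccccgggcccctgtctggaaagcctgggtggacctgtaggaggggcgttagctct
Thbs3: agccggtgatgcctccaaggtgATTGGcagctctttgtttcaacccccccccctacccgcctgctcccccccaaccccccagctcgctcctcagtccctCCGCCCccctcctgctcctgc
Thbs4: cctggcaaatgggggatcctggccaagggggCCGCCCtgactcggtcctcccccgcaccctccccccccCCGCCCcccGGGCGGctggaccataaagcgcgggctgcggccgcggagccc
Tnxb: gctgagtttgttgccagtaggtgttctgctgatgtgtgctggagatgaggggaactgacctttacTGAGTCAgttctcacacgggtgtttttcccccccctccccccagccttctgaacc

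The Thbs4 window held 3 GC boxes, the Thbs3 window 1 GC box and 1 CCAAT box, and the Tnxb window 1 AP-1 site. The Tnxb window lies inside the span given above for the gene. Thbs2, Sparc, Tnc and Postn held none of the 5 motifs. Among 32851 windows of the same length, 26.5% held a GC box, 21.3% a CCAAT box, 3.41% an AP-1 site, 6.34% a TATA box and 5.82% a TEAD site. A match describes these letters only and is not a site shown to be bound.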

How the data were processed

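Bulk RNA-seq was made from 8 sorted libraries with a stranded total-RNA kit. Gene counts were deposited raw, as the authors obtained them with Rsubread on the mm10 build, and tested their own comparison with DESeq2; the aligner, annotation release and strand setting are not given in the sources used here. Entrez IDs were matched to symbols (25293 matched, 1886 did not). In R 4.3.3, counts were filtered with filterByExpr (minimum count 10, minimum total 15), scaled by TMM and tested with edgeR 4.0.16 (quasi-likelihood, Benjamini-Hochberg adjustment). An SE is the size of a log2 fold change over the root of its F statistic. CPM are TMM-scaled; RPKM divide CPM by the GENCODE M21 exon union; log2 CPM use a prior count of 2. Gene starts and ends are from RefSeq (mm10), and strands and exon overlaps are from GENCODE M21. DESeq2 1.42.0, limma 3.58.1 (voom), other scalings and filters, a fit without mitochondrial and ribosomal RNA genes, and leaving out each library were alternatives. The fit was tested on simulated data. No 2 columns were identical. Numbers of replicates follow accession order and are not known to pair libraries. Library numbers alternate between QZ1-hi and QZ1-lo, and whether neighbouring numbers share a mouse was not given. If they do, the unpaired fit leaves that pairing out. The members and lists were chosen with earlier results of these data known. Named are the 10 genes, the 3 genes most changed in each direction among those called in each related list, the markers, and the 2 genes most correlated with each of the 10, of which 1 is not reported here.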

Additional observations from a re-analysis of the deposited data

Results flagged for a closer look

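Within groups of 4 libraries, Dixon's test at the 95% level was applied to the CPM of the 10 genes in both groups, 20 groups of libraries in all, and chance alone flags about 1 in 20. It set apart 2 values, both from QZ1-lo replicate 4. Thbs1 stood there at 436 CPM, below the other 3 QZ1-lo libraries (ratio 0.933), and Thbs3 at 21.5 CPM, above them (ratio 0.872). The same library had the lowest QZ1-lo level of 8 of the 10 genes.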

How the results depend on the processing

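Thbs2, Sparcl1, Spon1, Tnxb and Postn kept their direction and call under all 15 alternatives, with largest adjusted p of 0.00322, 0.00162, 0.00525, 0.0349 and 0.00483. The number of the 10 genes called higher ranged from 6 to 8. Scaling by library size alone moved the median change over all genes from 0.02 to -0.44; it called 882 genes higher and 2509 lower, of which 1 was among the 10 (Thbs1, -0.86, edgeR adjusted p = 0.0379), and gave Thbs3 -0.03 (edgeR adjusted p = 0.951). None of the 8 genes called higher changed direction there. Sparc (library size alone), Thbs4 (limma-voom) and Tnc (8 of 15 alternatives) lost their calls as given above, and Thbs3 gained one without QZ1-hi replicate 1; the cause was not tested. Thbs4 was not tested under a minimum of 10 counts in every library, since QZ1-lo replicate 1 had 2. The differences between related genes kept their direction under all 9 alternatives. No paired analysis was possible because neither the labels nor the methods say which libraries share a mouse. Depth limits Thbs4 most, at 2 to 26 counts in QZ1-lo.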
